A study of Homo sapiens with 16 samples.

Results

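The 48 genes described here are interferon-stimulated genes together with genes of antigen presentation on HLA class I. They were taken as a named list, and all 48 were found among the 22892 genes kept in the HiSeq table and among the 25606 kept in the NextSeq table. Their levels came from 10 RNA-seq libraries of HT1080, an established human fibrosarcoma line, in lines that carry a doxycycline (DOX) inducible XIST cDNA at a single integration site, made to ask how far XIST, the RNA that silences the inactive X chromosome, silences genes on other chromosomes. The HiSeq table holds an 8p line without DOX (No DOX, 1 library) and after 5 days of DOX (2 libraries, which the study's methods describe as 2 8p clones), and, all after 5 days of DOX, a 1p line with XIST, a 1p line with the vector only and a 12q line with XIST (1 library each). The NextSeq table holds 1p and 12q lines with XIST, each as 1 No DOX and 1 DOX library. All lines constitutively express the Tet repressor. The 1p and 8p lines were derived from another Tet-repressor subclone than the 12q line, and integration site and clone cannot be told apart. No vector line without DOX and no 8p or 12q vector line was sequenced, so DOX itself and XIST induction cannot be told apart. The labels do not say that libraries came from separate cultures, so p-values measure the spread between these libraries only.

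Interferons are secreted proteins that bind receptors coupled to the kinases JAK1 and TYK2. Type I and type III interferons lead to a complex with STAT2 and IRF9 that binds interferon-stimulated response elements (ISRE), whereas interferon gamma acts on gamma-activated sites (GAS). The genes switched on encode antiviral proteins that sense, degrade or sequester foreign RNA, and the immunoproteasome, TAP transporter and HLA class I chains that display peptides to T cells. Many cultured cells express a part of this set at a low level with no interferon added.

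Since the response is read from DNA letters near the starts of these genes, promoter windows of equal length around each start (RefSeq, GRCh38.p14) were searched on both strands for the ISRE core GAAANNGAA and for the GAS letters TTCNNNGAA, which can overlap each other. Windows were matched for 40 of the 48 genes (DDX58 under its current symbol RIGI), and IRF7, IFIT2, MX2, OAS2, OASL, IFITM2, USP18 and TRIM22 were not matched. The ISRE core letters were in a window of 27 of the 40 (67.5%), and in 9.86% of the 27305 genes with a window. GAS letters were in a window of 11 of the 40 (27.5%), and in 9.38% of all genes. A match is a description of letters and not a site shown to be bound. The promoters below belong to some of the genes compared. ISG15, IFIT1 and OAS3 were higher in the 12q line, DTX3L and PSMB9 were lower in the 8p line, and TAP1, the divergent neighbor of PSMB9, was not called there. These do not stand for all genes called in 12q against 1p. Of the others called higher, IFI6, IFI44, IFIT3, IFITM1, IFITM3, TRIM21 and IFI16 had an ISRE core in a window. OAS1, STAT2, IRF9, DDX58 and SP100, also called higher, had none. Of those called lower, IFIT5 had 3, and IRF1, HLA-B and HLA-C had none. Capitals mark ISRE core letters, and no GAS letters fell within these stretches.
ISG15 (chr1:1013347-1013496, plus strand, 150 bases before the start): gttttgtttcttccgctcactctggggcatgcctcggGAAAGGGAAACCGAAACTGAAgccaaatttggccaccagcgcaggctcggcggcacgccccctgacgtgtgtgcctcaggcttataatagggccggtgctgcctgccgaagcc
IFIT1 (chr10:89392473-89392622, plus strand, 150 bases before the start): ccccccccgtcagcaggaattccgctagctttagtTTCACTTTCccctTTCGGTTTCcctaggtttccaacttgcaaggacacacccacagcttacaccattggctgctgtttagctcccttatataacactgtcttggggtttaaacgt
OAS3 (chr12:112938324-112938473, plus strand, 150 bases before the start): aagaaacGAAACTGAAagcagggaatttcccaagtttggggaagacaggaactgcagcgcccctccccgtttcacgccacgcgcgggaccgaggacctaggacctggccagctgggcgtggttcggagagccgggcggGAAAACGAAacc
DTX3L (chr3:122564218-122564347, plus strand, 120 bases before the start to 10 after it): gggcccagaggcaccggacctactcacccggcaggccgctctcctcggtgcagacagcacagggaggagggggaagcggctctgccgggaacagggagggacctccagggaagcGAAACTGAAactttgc
TAP1 (chr6:32853705-32853854, minus strand, 150 bases before the start): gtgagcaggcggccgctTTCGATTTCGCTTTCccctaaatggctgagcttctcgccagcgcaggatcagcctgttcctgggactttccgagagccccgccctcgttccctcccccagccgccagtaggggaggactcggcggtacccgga
PSMB9 (chr6:32854042-32854191, plus strand, 150 bases before the start): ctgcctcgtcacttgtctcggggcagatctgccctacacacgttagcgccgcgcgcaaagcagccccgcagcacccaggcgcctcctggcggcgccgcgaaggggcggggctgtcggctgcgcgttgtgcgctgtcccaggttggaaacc
The stretch of ISG15 held 3 overlapping ISRE cores, and those of IFIT1, OAS3 and TAP1 held 2 each. The window of PSMB9 (chr6:32853942-32854241) held neither motif. The ISRE cores marked for TAP1 lie between the starts of these divergent genes, outside the PSMB9 window, so the contrast depends on the window limit.

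Levels are given as FPKM, fragments mapped to a gene scaled by transcript length and by the mapped fragments of the library. Differences were computed only within a table, whereas marker levels are set side by side over all 10 libraries of both tables. XIST was higher with DOX in each line, from 3.38 to 99.0 and 89.7 FPKM in the 8p line, from 4.17 to 21.95 in the 1p line and from 3.75 to 67.6 in the 12q line, and it was at 0.0705 in the vector library. VIM and the other 5 mesenchymal markers were at 1 FPKM or more in every library. Of the immune markers, PTPRC was listed at 0 throughout and the 5 genes summed to between 0.21 and 1.72 FPKM. LYZ, another of these 5, was above 1 FPKM in every HiSeq library and made up most of the sum there. It was at 1.72 FPKM in the vector library and at 0.389 or less in the NextSeq libraries. The epithelial markers EPCAM and CDH1 were at 2.38 and 1.38 FPKM in the NextSeq 12q DOX library and at 0.0497 or less in the other 9, and of 17 epithelial genes listed (14 of them listed after that library was seen) 10 were highest there. The most expressed of them did not follow: the keratin KRT8 was lowest there, at 57.6 FPKM, and KRT18 was at 130 FPKM against 164 in 12q No DOX. The 14 genes listed later summed to 197 FPKM in that library, less than in any other. The endothelial marker CDH5 was at 5.44 to 7.06 FPKM in the 3 12q libraries and at 0.835 or less elsewhere. PECAM1, the other endothelial marker listed, did not follow. It was below 1 FPKM in every library, at 0.436 in the HiSeq 12q library and 0.958 in the HiSeq 1p XIST library. Differences between groups were tested with limma on log2(FPKM + 1), which understates changes of low genes, with p-values adjusted over all genes tested by the Benjamini-Hochberg method.

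Most of the 48 genes were expressed at a low level. The mean over a table was at least 100 FPKM for 2 genes in each table, IFITM2 and IFITM3, between 10 and 100 for 8 in each, and below 1 for 17 in the HiSeq and 13 in the NextSeq table. A mean of at least 1 FPKM, the limit for testing, was reached by 31 genes in the HiSeq and 35 in the NextSeq table, and by 13 genes in neither. IFITM3, which blocks fusion of viruses with endosomes, was at 251, 318 and 310 FPKM in the 8p No DOX and DOX libraries, 221 in 1p, 158 in the vector line and 348 in 12q. IFITM2, its neighbor on chromosome 11, ranged from 149 to 275 FPKM in the HiSeq and from 181 to 318 in the NextSeq libraries, and reads of these near-identical genes may have been divided between them. Next in level were SP100, a nuclear body protein (19.6 to 40.8 FPKM over all libraries), IFI16, a DNA sensor (21.6 to 34.1), and PSMB8, an immunoproteasome subunit (9.86 to 22.4 in the HiSeq and 30.0 to 37.0 in the NextSeq libraries). At the other end, 11 genes stayed below 1 FPKM in every NextSeq library and 13 in every HiSeq library. These included RSAD2, which encodes the antiviral enzyme viperin and did not exceed 0.284 FPKM, the antiviral GTPases MX1 and MX2, at most 0.667 and 0.249, and IFI44L, at most 0.0198. XAF1 was listed at 0 in the 4 NextSeq libraries.

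**Figure D1:**
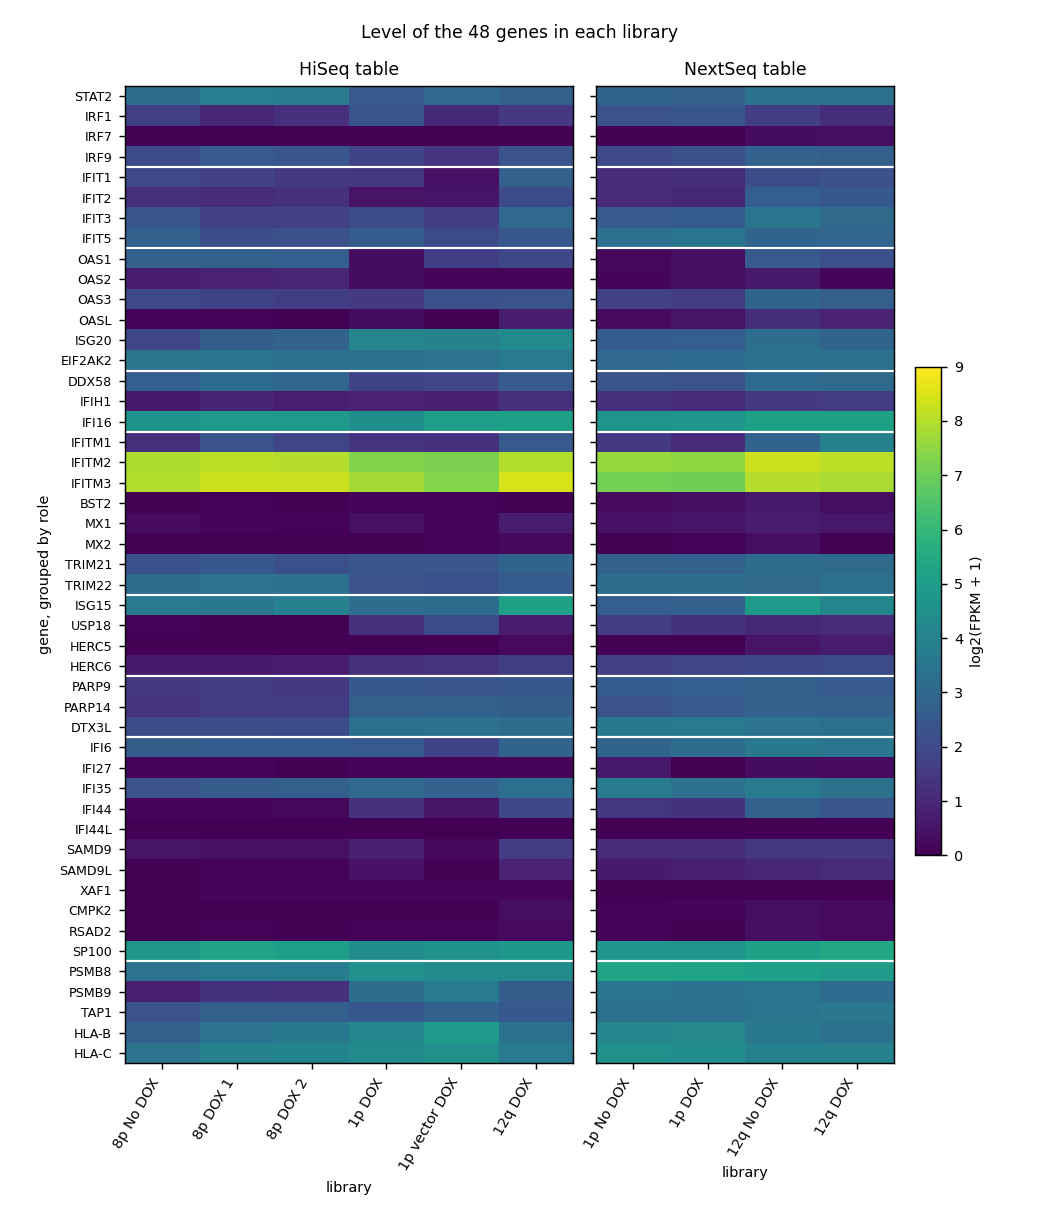
Level of each of the 48 genes (rows, grouped by role with white lines between roles) in each library (columns), as log2(FPKM + 1) from dark (0) to yellow (9), with the HiSeq and NextSeq tables in separate panels. IFITM2 and IFITM3 stand above all others, and 17 genes in the HiSeq and 13 in the NextSeq table had a mean below 1 FPKM.

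The signals upstream were assessed with lists of other pathway genes. Of 13 interferon genes, 12 were at 0.182 FPKM or less in every library, IFNB1 was above 0 only in the NextSeq 12q No DOX library (0.0738), and IFNE was at 0.108 to 0.52 FPKM in the HiSeq and 0.536 to 2.12 in the NextSeq libraries. Receptor chains were expressed, with IFNAR1, a chain of the type I interferon receptor, at 3.77 to 9.60 FPKM and IFNGR1, a chain of the interferon gamma receptor, at 4.22 to 11.0. B2M, the light chain of HLA class I, was at 239 to 344 FPKM in the HiSeq and 486 to 557 in the NextSeq libraries, with adjusted p between 0.071 and 0.83 over the 4 comparisons tested by limma. HLA-DRA, an HLA class II chain, was at most 0.0472 FPKM, whereas HLA-DMA, which loads peptides onto class II, was at 1.36 to 3.71 FPKM in the HiSeq and 2.06 to 7.17 in the NextSeq libraries.

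The clearest contrast was between the 12q and 1p lines in the NextSeq table, where many of the antiviral genes were higher in 12q with and without DOX. Of the 35 genes tested, 17 were higher in 12q (limma with DOX as an additive term, adjusted p below 0.05), against 17.9% of all 11397 genes tested, and 4 were lower, against 15.0% of all genes. The median difference of the 35 was 0.40 on the log2 scale, and that of all genes tested was 0.02. By role, 3 of 4 IFIT genes, 2 of 4 tested genes of the OAS, ISG20 and PKR group, 4 of 5 tested membrane and restriction factors, 2 of 3 nucleic acid sensors and 2 of 3 tested transcription factors were higher, as were 3 of 5 tested other induced genes, 1 of 3 tested genes of ISG15 conjugation and 0 of 3 among PARP9, PARP14 and DTX3L. None of the 5 antigen presentation genes was higher and 2 were lower. As with all bulk libraries, a higher share of expressing cells and more RNA per cell cannot be told apart.

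ISG15, a ubiquitin-like protein that is attached to other proteins after infection, was at 5.47 and 5.83 FPKM in the 1p No DOX and DOX libraries and at 28.6 and 16.7 in the 12q ones. The 12q line was thus higher in both conditions, by 1.78 ± 0.21 on the log2 scale (SE, 4 libraries, limma adjusted p = 0.00815). In the HiSeq table, ISG15 was at 33.3 FPKM in the 12q DOX library, 8.48 in 1p, 8.09 in the vector line and 11.0 to 14.2 in the 8p libraries. The 12q library was again above all others. USP18, the protease that removes ISG15, did not pass the threshold in the NextSeq table (2.11 and 1.47 FPKM in 1p, 1.05 and 1.09 in 12q, adjusted p = 0.115).

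OAS1 and OAS3 make the 2′-5′ oligoadenylates that activate RNase L. OAS1 was at 0.156 and 0.306 FPKM in the 1p libraries and at 4.95 and 3.61 in the 12q libraries, a difference of 2.09 ± 0.19 (adjusted p = 0.00506). OAS3 was at 2.42 and 2.06 FPKM in 1p and at 6.46 and 5.54 in 12q, a difference of 1.11 ± 0.10 (adjusted p = 0.00506). Neither gene overlapped between the lines. In the HiSeq table, however, the vector line, also at 1p, had 2.17 FPKM of OAS1 and 3.87 of OAS3 against 0.237 and 1.88 in the 1p XIST line, so that the 12q library (2.87 and 3.94) exceeded the vector library by only 0.29 and 0.02 on the log2 scale. The 8p libraries had the highest OAS1, 5.38 to 5.74 FPKM.

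The IFIT proteins bind viral RNA and block its translation. IFIT2 was at 1.09 and 1.02 FPKM in the 1p libraries and 5.45 and 4.58 in the 12q libraries (difference 1.55 ± 0.12, adjusted p = 0.00415). IFIT1 was at 1.18 and 1.27 in 1p and 3.38 and 3.65 in 12q (1.02 ± 0.12, adjusted p = 0.00848). IFIT3 was at 5.00 and 5.19 in 1p and 10.2 and 7.57 in 12q (0.68 ± 0.13, adjusted p = 0.0224). These 3 neighbors on chromosome 10 were thus all higher in 12q, whereas IFIT5, next to them, was lower (9.50 and 10.1 FPKM in 1p against 6.48 and 6.62 in 12q). The IFIT genes are similar in sequence, and how the authors' counting divided shared reads is unknown.

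IFITM1, which acts at the plasma membrane, was at 1.85 and 1.17 FPKM in the 1p libraries and at 6.30 and 14.2 in the 12q libraries, a difference of 2.08 ± 0.35 (adjusted p = 0.0177). The highest value was in the 12q DOX library in which EPCAM and CDH1 were found. The summed level of EPCAM, CDH1 and KRT20 was 3.76 FPKM there, with KRT20 at 0, and at most 0.063 FPKM in any other library. The part of this in the IFITM1 value was not tested. IFITM3 was also higher in 12q (255 and 231 against 139 and 131 FPKM, difference 0.84 ± 0.06, adjusted p = 0.00348). Among the sensors, DDX58 (RIG-I, a sensor of viral RNA) differed by 0.80 ± 0.09 (adjusted p = 0.00709), from 4.14 and 3.94 FPKM to 7.93 and 7.65. IFI44, an induced cytoplasmic protein, was at 1.73 and 1.497 FPKM in 1p and 5.91 and 4.24 in 12q (1.21 ± 0.12, adjusted p = 0.00663).

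The transcription factors did not move together. IRF9 and STAT2, which bind the ISRE together, were higher in 12q by 0.67 and 0.54 on the log2 scale. IRF1, which binds similar letters and drives antigen presentation genes, was at 3.98 and 4.36 FPKM in the 1p libraries and at 2.10 and 1.26 in the 12q libraries (difference -0.97 ± 0.17, adjusted p = 0.0198). HLA-B was also lower in 12q, at 16.3 and 17.8 FPKM against 11.4 and 9.27 (-0.67 ± 0.12, adjusted p = 0.0185). HLA-C, similar enough to HLA-B for reads to be shared, was lower by 0.54 on the log2 scale in the direction of HLA-B, and PSMB8, PSMB9 and TAP1 did not pass the threshold (differences of -0.22, -0.14 and 0.24). Of the remaining higher genes, IFITM2, SP100, IFI6, IFI16 and TRIM21 differed by 0.65, 0.57, 0.51, 0.44 and 0.39.

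Without the 12q DOX library, the 12q No DOX library against the 1p pair gave 16 genes higher and 4 lower, with the calls of IRF9 and IFI6 lost. There the spread came from the 1p pair alone, and the lone 12q library was assumed to vary like it. Without the limit on low levels, 8 of the 21 calls were lost, those of STAT2, IRF1, IRF9, IFI6, IFIT3, IFITM1, TRIM21 and HLA-B, with adjusted p between 0.0502 and 0.0929. Other cell type markers that moved with the lines were CDH5 (5.70 and 7.06 FPKM in 12q against 0.0447 and 0.0545 in 1p) and the sum of the 6 mesenchymal markers (1997 and 2086 FPKM in 12q against 3296 and 3463 in 1p). Of these 6, 4 were lower and 1 higher in 12q. PECAM1, the other endothelial marker listed, was not higher in 12q (0.628 and 0.534 FPKM against 0.767 and 0.796 in 1p). The part of these markers in the results was not tested. Neighboring genes did not share the differences of ISG15 and OAS1: genes within 10 Mb of ISG15 had a median difference of -0.10 (n = 81) and those within 10 Mb of OAS1 of -0.11 (n = 121).

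**Figure D2:**
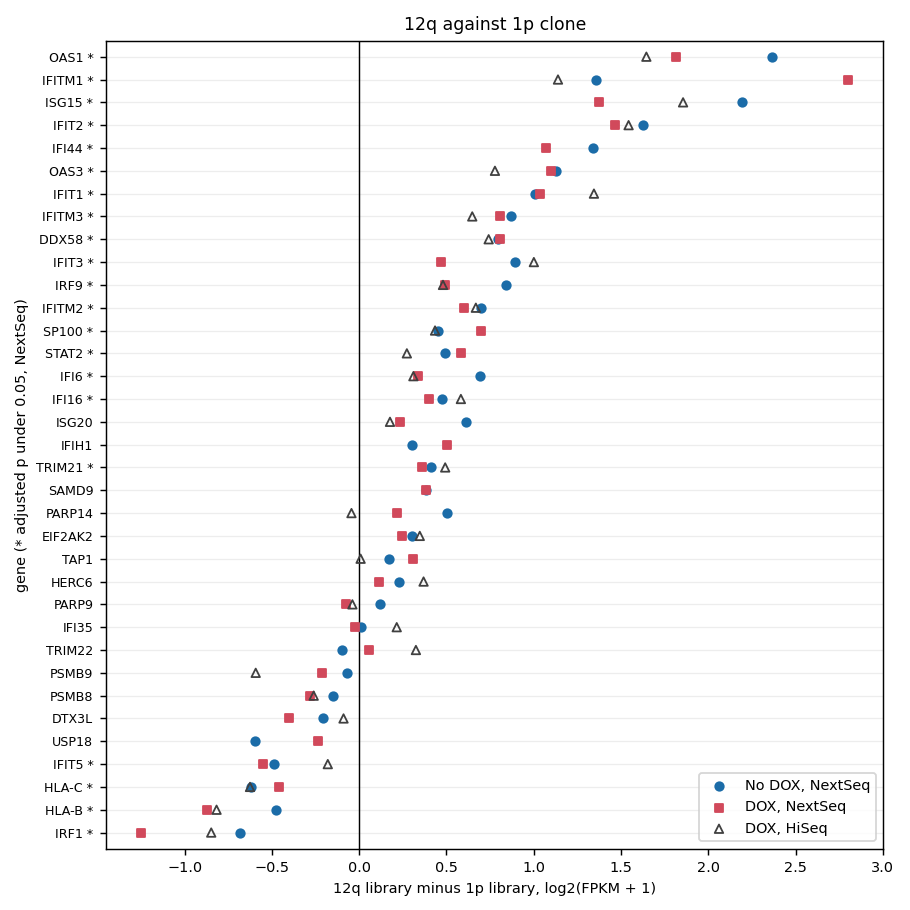
Difference between the 12q and 1p libraries (x axis, log2(FPKM + 1)) for the 35 genes tested in the NextSeq table (y axis), for No DOX (circles) and DOX (squares) in the NextSeq table and DOX in the HiSeq table (open triangles, shown for the 31 genes tested there). ISG15, OAS1 and the IFIT1 to IFIT3 genes lie to the right in each comparison, IRF1 and HLA-B to the left, and IFITM1 is spread from 1.14 to 2.80.

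The 12q and 1p lines with DOX were sequenced in both tables, with different libraries, and the same difference was computed within each. Of the 31 genes tested in both, 21 were higher in 12q in both tables, 8 lower in both and 2 in opposite directions. Over all 10196 genes tested in both, 44.5% were higher in both tables and 74.2% had the same direction, higher or lower. At least 1.5-fold higher in both tables were 9 of the 31, against 5.59% of all genes, and at least 1.5-fold lower in both were 2 of the 31, IRF1 and HLA-B, against 3.02% of all genes. Against the vector library at 1p, however, IRF1 was higher in the 12q library, by 0.48 (1.80 against 1.01 FPKM), and HLA-B was lower (-1.58). The median HiSeq difference of the 31 genes was 0.35 from the 1p XIST library and 0.30 from the vector library. Relative to all genes tested, these medians were 0.22 and 0.07. IFIT2, at 0.40 FPKM in the HiSeq 1p and 3.08 in the HiSeq 12q library, differed by 1.54 there and by 1.46 in the NextSeq DOX libraries. ISG15 differed by 1.86 and 1.37, and IFIT1 by 1.35 and 1.03. IFITM1 differed by 1.14 in the HiSeq and by 2.80 in the NextSeq table, so that its HiSeq value, from a 12q library with EPCAM at 0, was the lower. Both tables have 1 library a group here and no test was made.

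Other interferon pathway genes were examined in the 12q and 1p lines as lists, beside the 17.9% of all genes called higher and 15.0% called lower. Of 14 other interferon targets, 11 were tested and 5 were higher in 12q and none lower. They included GBP2, an antimicrobial GTPase (difference 1.503, adjusted p = 0.0047), IFI30, a lysosomal thiol reductase (1.04, adjusted p = 0.00643), and NMI, a STAT-binding protein (0.68, adjusted p = 0.0109). Of 14 receptors, kinases and regulators, 13 were tested, 3 were higher (STAT3 by 0.59, IL10RB by 0.53 and PIAS1 by 0.45) and SOCS1, an inhibitor of JAK signaling, was lower, at 3.59 and 3.85 FPKM in 1p against 0.629 and 1.06 in 12q (-1.37, adjusted p = 0.0064). Of 15 sensors, adaptors and regulators, 10 were tested, 3 were higher (IRF2, IRF3 and TMEM173, which encodes STING) and TRIM25 was lower. Of 21 other antigen presentation genes, 18 were tested, 5 were lower, among them PSME2 (-0.52, adjusted p = 0.00756) and CALR (-0.57, adjusted p = 0.006), and HLA-DMA was higher (1.27, adjusted p = 0.00551). Among the 13 interferon genes, IFNE alone was tested, and it was lower in 12q (-0.69, adjusted p = 0.0321).

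DOX against No DOX in the 8p line was assessed next. Antigen presentation genes were higher and IFIT genes lower or not called with DOX. Of the 31 genes tested, 12 were higher with DOX (limma, adjusted p below 0.05), against 11.3% of all 11357 genes tested, and 3 were lower, against 19.8% of all genes. After centering each library on its median, 15 were higher and 3 lower. Over all genes the split changed from 1286 higher and 2251 lower to 2169 higher and 2080 lower, and quantile normalization gave 1448 and 1470. The median difference of the 31 was 0.16, and that of all genes tested -0.06.

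All 5 antigen presentation genes on the list were higher with DOX. HLA-B rose from 6.18 FPKM in the No DOX library to 9.89 and 11.5 in the DOX libraries (difference 0.70 ± 0.11, SE, adjusted p = 0.0228). HLA-C rose from 9.80 to 15.1 and 15.6 FPKM (0.60 ± 0.07, adjusted p = 0.0179). Both DOX libraries were thus above the No DOX library for each of these HLA heavy chains, whose reads may be shared. PSMB9, an immunoproteasome subunit, rose from 0.688 to 1.503 and 1.38 FPKM (0.53 ± 0.08, adjusted p = 0.0211). TAP1, a chain of the peptide transporter that lies next to it on chromosome 6, rose from 3.89 to 5.58 and 5.64 FPKM (0.44 ± 0.07, adjusted p = 0.0249). PSMB8 rose from 9.86 to 12.5 and 12.7 FPKM (adjusted p = 0.0387). In the list of 21 other antigen presentation genes, 16 were tested, 3 were higher, among them HLA-E by 0.39 and NLRC5, an activator of HLA class I genes, by 0.34, and CALR was lower by 0.38 on the log2 scale in the same libraries. Genes within 10 Mb of HLA-B had a median difference of -0.07 (n = 191).

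Among the antiviral genes, ISG20, an RNA exonuclease, rose from 2.81 to 5.34 and 6.04 FPKM (0.81 ± 0.10, adjusted p = 0.0177), and IFITM1 from 1.30 to 3.98 and 2.68 FPKM (0.89 ± 0.20, adjusted p = 0.0401). STAT2 rose from 8.61 to 13.3 and 12.2 FPKM (0.51 ± 0.09, adjusted p = 0.0246), and IRF9 from 3.03 to 4.92 and 4.29 (0.47 ± 0.10, adjusted p = 0.0365). SP100 rose from 26.3 to 36.8 and 33.2 FPKM (0.40 ± 0.09, adjusted p = 0.0447), and IFITM3 and IFI35 were the other genes called higher. IRF1 fell from 2.25 to 0.936 and 1.30 FPKM (-0.63 ± 0.13, adjusted p = 0.0333). IFIT5 fell from 6.04 to 3.51 and 3.66 FPKM (-0.62 ± 0.08, adjusted p = 0.0179), and IFIT3 from 4.16 to 2.43 and 2.46 (-0.58 ± 0.07, adjusted p = 0.018). ISG15 and IFIT2, far apart between the 12q and 1p lines, differed little with DOX in 8p (0.07 and 0.03, adjusted p = 0.749 and 0.842).

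The error in this comparison rests on the 2 DOX libraries, which gave 1 residual degree of freedom a gene, and the lone No DOX library was assumed to vary like them. Without the limit on low levels none of the 31 genes kept its call, with adjusted p between 0.116 and 0.22 for the 15 called. Quantile normalization ended the calls of IRF1 and IFITM1 (adjusted p = 0.054 and 0.0736), and a pseudocount of 0.1 those of SP100 and IFITM3 (0.0501 and 0.0517). Of the 6 mesenchymal markers, 4 were also higher with DOX, and their sum was 2267 FPKM without and 2467 and 2480 with DOX, while EPCAM, CDH1 and KRT20 summed to at most 0.063 FPKM and the 14 epithelial genes listed later to 368 FPKM without and 366 and 373 with DOX, nearly all of it from the keratins KRT8 and KRT18. The part of this in the results was not tested. Other interferon targets included 4 of 11 tested that were higher, among them UBE2L6, the conjugating enzyme for ISG15 (2.20 to 4.51 and 4.69 FPKM, adjusted p = 0.0162), and 1 that was lower. Beside the 11.3% of all genes called higher and 19.8% called lower, of 13 receptors and kinases tested, IFNAR2 was higher (0.38, adjusted p = 0.0321), and of 10 sensors and adaptors tested 2 were higher and 2 lower, among them MB21D1, which encodes the DNA sensor cGAS (-0.65, adjusted p = 0.0179).

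In the 1p and 12q lines together, none of the 35 genes tested was called with DOX (limma with the line as an additive term), against 0% of all genes higher and 0.00877% lower, which was 1 of 11397 genes. This fit, with 1 residual degree of freedom, did not call XIST either (difference 3.00, adjusted p = 0.702), so the absence of calls says nothing about the 35. At an unadjusted p below 0.05 there were 746 genes, among them 2 of the 35, IFI35 and IFITM2. The median difference of the 35 was -0.04, and that of all genes -0.01. With 1 library a condition in each line, none of the 35 differed by at least 1.5-fold in either direction in the 1p line (0.456% of all genes were higher and 0.632% lower). In the 12q line IFITM1 was at least 1.5-fold higher with DOX (0.965% of all genes) and ISG15 at least 1.5-fold lower (1.95% of all genes). IFITM1 went from 6.30 to 14.2 FPKM in 12q, the DOX library being the one in which EPCAM and CDH1 were found, and from 1.85 to 1.17 in the 1p line. ISG15 went from 28.6 to 16.7 FPKM in 12q and from 5.47 to 5.83 in 1p. These single-library differences have no replicate check.

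**Figure D3:**
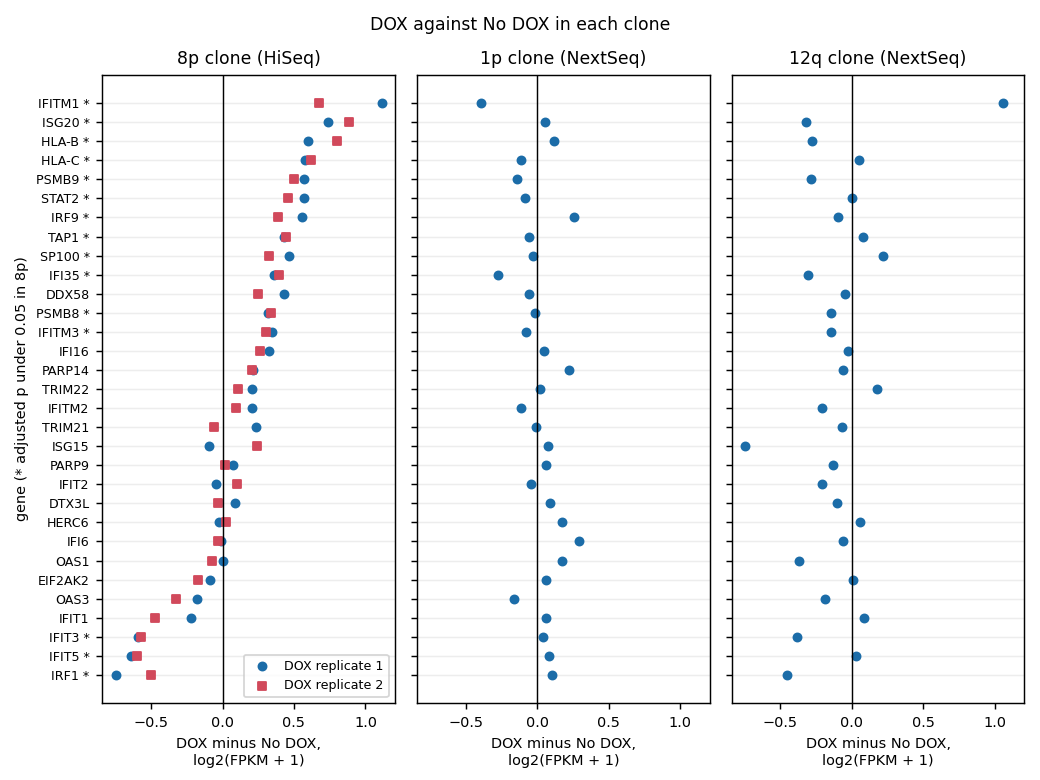
Difference between DOX and No DOX libraries (x axis, log2(FPKM + 1)) for the 31 genes tested in the HiSeq table (y axis, ordered by the 8p difference), in the 8p line (each of the 2 DOX libraries against the No DOX library, stars marking adjusted p below 0.05) and in the 1p and 12q lines (1 library a condition). The antigen presentation genes HLA-B, HLA-C, PSMB9 and TAP1 lie to the right in both 8p libraries and within 0.29 of 0 in the other lines, and IFITM1 reaches 1.05 in 12q.

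Some of the genes lie on chromosomes that carry a transgene, so their positions (hg18) were set beside the changes with DOX. OAS1 (chr12:111829122-111842095), OAS3 (chr12:111860632-111895438) and OAS2 (chr12:111900657-111933911) lie 3.17 to 3.25 Mb from FAM222A, the gene that holds the 12q integration, and OASL (chr12:119942478-119961163) lies 11.3 Mb from it. With DOX in the 12q line OAS1 went from 4.95 to 3.61 FPKM, a reduction of 27.1%, and OAS3 from 6.46 to 5.54, a reduction of 14.2%. In the 1p line OAS1 went from 0.156 to 0.306 FPKM with DOX and OAS3 from 2.42 to 2.06, a reduction of 14.8%. The difference between the lines was not tested, and these totals do not separate alleles. The paper did separate alleles for OAS3 by pyrosequencing, and reported that its silencing in 12q clones correlated with the XIST level. OAS2 went from 0.534 to 0.0903 FPKM and OASL from 1.25 to 0.814 in 12q, and both were higher with DOX in 1p (0.109 to 0.253 and 0.200 to 0.377), but all values of OAS2 were below the limit for testing. On the log2(FPKM + 1) scale, the 12q differences were -0.37 for OAS1, -0.49 for OAS2, -0.19 for OAS3 and -0.31 for OASL, beside a median of -0.08 for genes within 10 Mb of OAS1 (n = 121) and lower and upper quartiles of -0.33 and 0.01.

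On chromosome 1, ISG15 (chr1:938710-939782) lies 38.6 Mb and IFI6 (chr1:27865159-27871311) 11.7 Mb from MACF1, the gene that holds the 1p integration. Neither was lower with DOX in the 1p line, with ISG15 at 5.47 and 5.83 FPKM and IFI6, a mitochondrial antiapoptotic protein, at 6.53 and 8.24. Of the other tested genes on chromosome 1, IFI44, 39.4 Mb from MACF1, went from 1.73 to 1.497 FPKM, and IFI16, 118 Mb from it, from 24.2 to 25.02. These are distances in the reference genome. In HT1080 a copy of chromosome 1 is broken by a translocation between MACF1 and IFI16. The paper does not know which copy holds the integration, so IFI16 may not be on the chromosome with the transgene. None of the 48 genes lies on chromosome 8. The vector and XIST lines at 1p, both with DOX, gave a further comparison of single libraries. IRF1 was at 4.04 FPKM in the XIST and 1.01 in the vector library, IFIT1 at 1.67 and 0.359, and IFI6 at 4.90 and 2.53, whereas HLA-B was at 17.3 and 30.0 and OAS1 at 0.237 and 2.17. The median difference of the 31 genes was -0.01 and that of all genes 0.09. These lines were not replicated, and the cDNA and the clone cannot be told apart.

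The 8p libraries were compared with the other HiSeq libraries. Of the 31 genes tested, 7 were lower in the 3 8p libraries than in the 3 others (limma, adjusted p below 0.05), against 1.07% of all 11357 genes tested, and 1 was higher, against 4.10%. All genes tested were shifted by a median of 0.22 toward 8p, and the differences below include this shift unless given as relative to all genes. With centering on the median the counts over all genes changed from 466 higher and 121 lower to 192 higher and 255 lower, and with quantile normalization to 190 and 236. The groups did not overlap, with 8p below, for 8 of the 31 (5.38% of all genes), and with 8p above for 4 of the 31 (31.8% of all genes). None of the 6 mesenchymal markers was called, but the epithelial keratin KRT18 was higher in 8p, at 187 to 212 FPKM against 105 to 137 (0.71, adjusted p = 0.0421), and KRT8 was at 155 to 181 FPKM against 79.3 to 127 (0.78, adjusted p = 0.0604). Their part in the results was not tested.

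PSMB9 showed the largest of these differences. It was at 0.688, 1.503 and 1.38 FPKM in the 8p libraries and at 8.43, 11.8 and 5.25 in the 1p, vector and 12q libraries, a difference of -2.08 ± 0.28 (adjusted p = 0.0153), or -2.29 relative to all genes. PSMB8 was at 9.86 to 12.7 in 8p and 18.6 to 22.4 in the others (-0.73 ± 0.16, adjusted p = 0.0469). TAP1, between them on chromosome 6, was at 3.89 to 5.64 in 8p and 4.50 to 6.15 in the others (-0.01 ± 0.18, adjusted p = 0.978), and the groups overlapped. Genes within 10 Mb of PSMB9 had a median difference of 0.10 (n = 204). HLA-B ranged from 6.18 to 11.5 FPKM in 8p and from 9.38 to 30.0 in the others, and was not called (-0.86 ± 0.40, adjusted p = 0.199). ISG20 was at 2.81, 5.34 and 6.04 FPKM in 8p and at 16.0, 15.3 and 18.2 in the others (-1.66 ± 0.24, adjusted p = 0.0187), with no overlap.

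DTX3L, PARP9 and PARP14, an ubiquitin ligase and ADP-ribosyltransferases of the interferon response, are neighbors on chromosome 3. DTX3L (chr3:123765875-123776739) was at 3.12, 3.37 and 3.02 FPKM in 8p and 8.66, 9.37 and 8.08 in the others (-1.22 ± 0.13, adjusted p = 0.00729). PARP14 was at 1.59 to 2.01 FPKM in 8p and 5.34 to 5.93 in the others (-1.21 ± 0.13, adjusted p = 0.00904), and PARP9 at 1.84 to 1.98 and 4.12 to 4.61 (-0.89 ± 0.13, adjusted p = 0.0174). HERC6, on chromosome 4, was at 0.552 to 0.601 FPKM in 8p and 1.44 to 2.15 in the others (-0.78 ± 0.17, adjusted p = 0.0469), while HERC5, the ligase for ISG15 beside it, was at 0 in the 8p libraries and at most 0.181 elsewhere in the HiSeq table. Large parts of these chromosomes were lower in 8p: the 332 tested genes of chromosome 3 beyond the largest gap between genes had a median difference of -0.19, and the 283 such genes of chromosome 4 of -0.40. Within 10 Mb, the median was -0.28 for the 89 neighbors of DTX3L and -0.52 for the 37 neighbors of HERC6, so that DTX3L lay 0.94 and HERC6 0.26 below its neighbors on the log2 scale. The part of these offsets in the results was not tested.

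TRIM22, a restriction factor, was the gene called higher in 8p, at 8.41, 9.83 and 9.16 FPKM against 3.90, 3.59 and 5.13 in the others (0.97 ± 0.15, adjusted p = 0.0244). OAS1 and STAT2 were also above the others in each 8p library but were not called (adjusted p = 0.0798 and 0.0709). None of these 8 calls was kept when either 8p DOX library was left out, with PSMB9 then at -2.18 and -2.15 (adjusted p = 0.0639 and 0.0747), and without the 12q library 5 genes were higher instead of 1. Without the 8p No DOX library or the 1p XIST library, 3 of the 7 remained called lower. Among the other interferon targets, UBE2L6 (2.20 to 4.69 FPKM in 8p and 14.0 to 19.2 in the others, -1.90, adjusted p = 0.0133) and UBA7, the activating enzyme for ISG15 (-1.09, adjusted p = 0.03), were lower in 8p, and no gene of the lists of receptors, sensors and other antigen presentation genes was called.

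**Figure D4:**
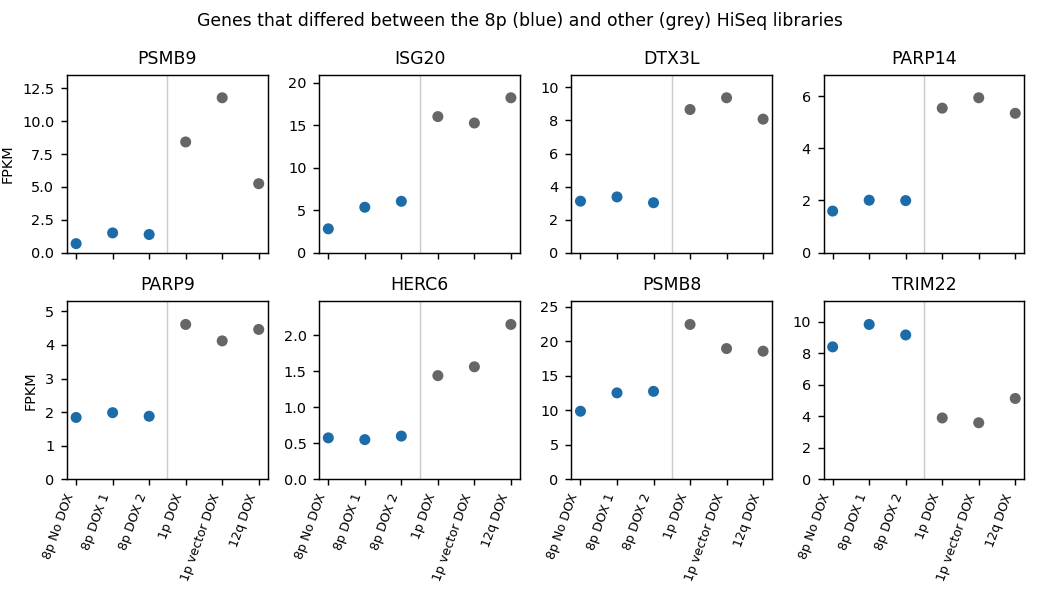
FPKM (y axis, from 0) in the 6 HiSeq libraries (x axis) of the 8 genes called different between the 3 8p libraries (blue) and the 3 others (grey). The 7 genes called lower and TRIM22, called higher, have no overlap between the groups.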

How the data were processed

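Poly(A)-selected, strand-specific RNA-seq libraries were prepared by the authors, aligned to hg18 with TopHat and summarized with Cufflinks. The deposited values are FPKM per gene in separate HiSeq (6 libraries, 50 bp paired-end reads) and NextSeq (4 libraries) tables. Read counts cannot be recovered from FPKM, so the depth is unknown and no counting interval is given. Lines with dates in place of symbols, symbols listed more than once and missing values were left out (26 date lines in each table, 735 HiSeq and 878 NextSeq lines of repeated symbols, 2 NextSeq lines without a value). Groups came from the GEO labels. The 6 ChIP-seq samples were not used.

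Genes with a mean of at least 1 FPKM over a table were tested on log2(FPKM + 1) with limma 3.58.1 (R 4.3.3), with a mean-variance trend and adjustment over all genes tested. With 1 library a group, 1.5-fold on that scale was used and no test. The fits were tested on simulated data. The genes and lists were chosen with earlier results of these data known, and those named were the most expressed, the 12 called genes with the largest difference in each comparison, and those on transgene chromosomes or on chromosomes 3 and 4. The remaining called genes, and genes named for low levels or to complete a group, were added after their values were seen. Alternatives changed the pseudocount, filter, trend, scaling, duplicate symbols and libraries used. Results on some genes of the lists are not reported here.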

Additional observations from a re-analysis of the deposited data

Results flagged for a closer look

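Effects of DOX went in opposite directions in different lines for 5 genes, each by at least 0.25 on the log2(FPKM + 1) scale, and these differences between lines were not tested, since the 1p and 12q lines had 1 library a condition. IFITM1 was 0.89 higher with DOX in 8p and 1.05 higher in 12q, but -0.39 in 1p. ISG20 was 0.81 higher in 8p and -0.32 in 12q. HLA-B was 0.70 higher in 8p and -0.28 in 12q, and PSMB9 was 0.53 higher in 8p and -0.29 in 12q. IFI35, named here because of this pattern, was 0.38 higher in 8p and differed by -0.27 in 1p and -0.31 in 12q. The 8p values come from the HiSeq table and the others from the NextSeq table. All 12q differences rest on the DOX library in which EPCAM and CDH1 were found, and the part of this was not tested.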

How the results depend on the processing

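No call on a member of the list changed direction under any alternative run. For DOX in 8p, no member was called without the filter (0 higher and 0 lower), and the median difference of 0.16 was 0.21 with either DOX library alone. With a filter of 5 FPKM 0 were lower, since IRF1, IFIT3 and IFIT5 were no longer tested. All 9 called members still tested there kept their call. For 8p against the other HiSeq libraries, 3 were lower at a filter of 5 FPKM, where HERC6, PARP9, PARP14 and PSMB9 were no longer tested. All 4 called members still tested there kept their call. Leaving out 1 library gave between 0 and 7 lower and between 0 and 5 higher, DOX libraries alone gave 3 lower and 0 higher, and the 8p DOX libraries against the 4 others gave 0 and 0. For 12q against 1p, 2 were lower without the filter and 11 higher at a filter of 5 FPKM, which left 24 members tested, and the count without the 12q DOX library, chosen after seeing the data, stayed within 1.5-fold. With DOX in both tables, the median of 0.35 in the HiSeq table was 0.39 with a pseudocount of 0.1 and 0.22 with median centering, and the NextSeq median of 0.36 was 0.37 with a pseudocount of 0.1. Without a pseudocount, the 12q differences with DOX were -2.56 for OAS2 and -0.62 for OASL. No paired analysis was possible because too few replicate numbers recur between the groups. Over all genes, counts moved by over 1.5-fold as follows. DOX in 8p gave 0 higher and 15 lower without the filter, 2169 higher with median centering and 1470 lower with quantile normalization. For 8p against the others, 236 were higher without the filter, 65 lower at 5 FPKM, 192 higher and 255 lower with median centering, 190 and 236 with quantile normalization, between 19 and 1536 higher and between 12 and 188 lower with 1 library left out, 103 and 36 with DOX libraries alone, and 2 and 0 for the 8p DOX libraries against the 4 others. For 12q against 1p, 1156 were higher and 815 lower without the filter, and 1058 lower without the 12q DOX library. DOX over both lines gave 0 and 0 without the filter and 1 and 1 without the variance trend. The lines are unreplicated at most sites and depth is unknown, which limits statements on genes below 1 FPKM.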
